A study of Homo sapiens with 8 samples.

Results

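The genes described here are 9 parts of the cyclic AMP system: the adrenergic receptor ADRA2C, the adenylyl cyclases ADCY3, ADCY7 and ADCY9, and the phosphodiesterases PDE3B, PDE4B, PDE4D, PDE7A and PDE7B. They were chosen by name with the counts of these libraries already known, and each matched 1 row among the 23562 rows of the count table. OCI-AML5 cells, a line derived from acute myeloid leukemia, were used throughout. All 8 libraries came from cells given a lentiCRISPRv2 vector, which carries Cas9 and a guide RNA in 1 construct. In 4 libraries the guide was directed at CEBPD (sgCEBPD 1 to 4), and in the other 4 it was a non-specific control guide (sgControl 1 to 4), and the labels give each library of a group its own guide number. CEBPD encodes the transcription factor C/EBP delta, and the comparison asks how transcripts differ when it is targeted. The labels do not say whether the cells were a pool or a clone, or that a transduction was repeated, so the spread within a group is the spread between single libraries with differently numbered guides.

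Cyclic AMP is a second messenger made from ATP by adenylyl cyclases. Receptors that couple to the stimulatory G protein switch the cyclases on, and receptors that couple to inhibitory G proteins, such as the alpha-2 adrenergic receptors, hold them back. Phosphodiesterases break cyclic AMP down. Its main effector is protein kinase A, whose catalytic subunits are held by regulatory subunits until cyclic AMP binds, and which phosphorylates the transcription factor CREB. In myeloid cells, agents that raise cyclic AMP, such as prostaglandin E and histamine, are known to dampen inflammatory responses.

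Among the 9 genes, ADRA2C was about 10.3-fold higher in sgCEBPD libraries, and PDE7B stood at 25.6% and PDE4B at 51.3% of the control mean. In each of these genes the 4 sgCEBPD libraries lay wholly to one side of the 4 sgControl libraries. The cyclases and the most abundant phosphodiesterases, PDE7A and PDE3B, had similar levels in both groups. Because these genes were picked from the same values, the differences are given as a description, and the number of members past the test is stated only beside the share of all genes.

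The sequences just before the start of 3 members are shown. PDE7B and ADRA2C had the lowest and the highest fold change of the 9. Of the 6 members with windows to search, PDE4D alone had a match to the core C/EBP motif. The sequences are 250 bases from RefSeq on GRCh38.p14, and capitals mark the motif found. PDE7B was read at chr6:135851451-135851700 on the plus strand, ADRA2C at chr4:3766135-3766384 on the plus strand, and PDE4D at chr5:59039477-59039726 on the minus strand.
PDE7B: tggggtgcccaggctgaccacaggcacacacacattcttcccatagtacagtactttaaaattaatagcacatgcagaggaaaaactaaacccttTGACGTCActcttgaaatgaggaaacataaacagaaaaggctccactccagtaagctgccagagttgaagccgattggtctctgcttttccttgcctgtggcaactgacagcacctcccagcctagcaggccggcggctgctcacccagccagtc
ADRA2C: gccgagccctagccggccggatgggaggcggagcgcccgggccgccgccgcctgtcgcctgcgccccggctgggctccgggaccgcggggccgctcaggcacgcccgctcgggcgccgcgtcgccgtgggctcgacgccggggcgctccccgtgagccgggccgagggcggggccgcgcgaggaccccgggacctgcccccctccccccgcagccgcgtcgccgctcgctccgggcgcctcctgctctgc
PDE4D: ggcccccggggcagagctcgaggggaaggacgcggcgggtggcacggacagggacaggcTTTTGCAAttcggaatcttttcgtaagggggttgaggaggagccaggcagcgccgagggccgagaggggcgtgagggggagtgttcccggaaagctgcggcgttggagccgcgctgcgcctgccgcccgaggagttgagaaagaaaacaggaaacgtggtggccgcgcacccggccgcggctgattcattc
The capitals in PDE7B are the cyclic AMP response element TGACGTCA, the palindrome that CREB is known to bind, 155 bases before the start. Of the 35116 RefSeq promoter windows of this length, 1.65% hold this element. The capitals in PDE4D, 191 bases before this start, read as the core C/EBP motif TTGCNNAA on the strand opposite to the one printed. All motifs were searched on both strands, and 9.05% of windows hold this one. The ADRA2C window has neither of these motifs and has 44 CpG dinucleotides, with a GC content of 84.8%, above that of 99.5% of windows. RefSeq windows were read for 6 of the 9 members, 19 in all, since PDE4B and PDE4D have several starts each. Of these 6, PDE7B was the only member with the full response element, and PDE4D the only one with the C/EBP core, in 1 of its windows. The shorter site TGACG, which also lies inside the full element, was found in 1 window each of ADCY3 and PDE4D and in 21.2% of all windows. A match is a string of letters and not a measured binding site, and the starts used in OCI-AML5 cells were not measured.

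Library totals lay between 10217751 and 11521209 counts. Levels are counts scaled to a common library size in the usual CPM unit, after TMM, a scaling by the bulk of genes. A total of 3 counts, taken as the limit for a gene with none, was worth 0.259 to 0.295 CPM. CEBPD transcript stood at 107, 209, 195 and 164 CPM in sgCEBPD 1 to 4, against 216, 204, 205 and 202 CPM in sgControl 1 to 4. A small insertion or deletion can leave the transcript in place, so these levels check neither the edit nor the protein. The library sgCEBPD 3 stood apart from the rest: it lay outside the range of the other 7 libraries in 69.7% of the 13838 genes tested. Of 14 monocyte and macrophage markers, 13 were listed and 12 were highest in sgCEBPD 3. Their summed level there was 1304 CPM, against 577 to 771 CPM in the other sgCEBPD libraries and 575 to 623 CPM in sgControl. In sgCEBPD 2, ITGAM, MRC1 and TYROBP also stood above all controls, at 21.3, 17.7 and 19.2 CPM. The highest control values were 10.9, 4.26 and 6.72 CPM. CSF1R in sgCEBPD 2 lay inside the control range. Leaving out sgCEBPD 3 thus does not remove every library with raised monocyte markers. The part of this marker difference in the results below was not tested. Log2 fold changes of the members and counts of genes past a test are given with and without sgCEBPD 3. Group means over 4 sgCEBPD libraries include it, and some pathway genes are given only that way. All 9 myeloid leukemia markers were listed, summing to 857 to 1102 CPM in sgCEBPD and 956 to 1072 CPM in sgControl. The sums hide opposite shifts: sgCEBPD 3 was above the other 7 libraries in 3 markers and below them in 4. KIT stood at 2.46 CPM there, against 18.1 to 51.9 CPM in the other 7. CD33 was below all controls in every sgCEBPD library, and CSF3R in sgCEBPD 1, 2 and 4. The groups overlapped in SPI1, MPO, CD34, KIT and FLT3. CSF2RA and ANPEP stayed at or below 1.08 CPM in every library. Of 5 lymphoid markers 3 were listed, summing to 2.46 to 3.71 CPM in sgCEBPD 1, 2 and 4 and 5.62 to 6.06 CPM in sgControl, against 57.2 CPM in sgCEBPD 3, where CD3D alone had 52.7 CPM. ITGA2B was the only listed marker of 5 for erythroid cells and megakaryocytes, and the epithelial and fibroblast markers EPCAM and COL1A1 summed to at most 1.55 CPM.

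ADRA2C is an adrenergic receptor that couples to inhibitory G proteins and so lowers cyclic AMP. It lies on chromosome 4 from 3766348 to 3768526 on the plus strand (GENCODE 29, GRCh38) and has 1 exon. It had 100, 132, 127 and 57 counts in sgCEBPD 1 to 4, against 5, 13, 4 and 19 counts in sgControl 1 to 4. These are 9.36, 12.5, 12.5 and 4.92 CPM in sgCEBPD, against 0.437, 1.26, 0.363 and 1.74 CPM in sgControl. The lowest sgCEBPD library, sgCEBPD 4, was still above the highest control, and its exact Poisson interval of 3.73 to 6.38 CPM, which covers counting error only, did not reach the 1.05 to 2.72 CPM of sgControl 4. The log2 fold change was 3.36 (SE 0.52), and 3.22 (SE 0.52) without sgCEBPD 3. In bulk RNA, a change in how many cells express a gene and a change in its RNA per cell cannot be told apart. The controls varied widely around their mean, with a coefficient of variation of 70.1% against a median of 8.05% over all genes tested, at counts of 19 or fewer.

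**Figure D1:**
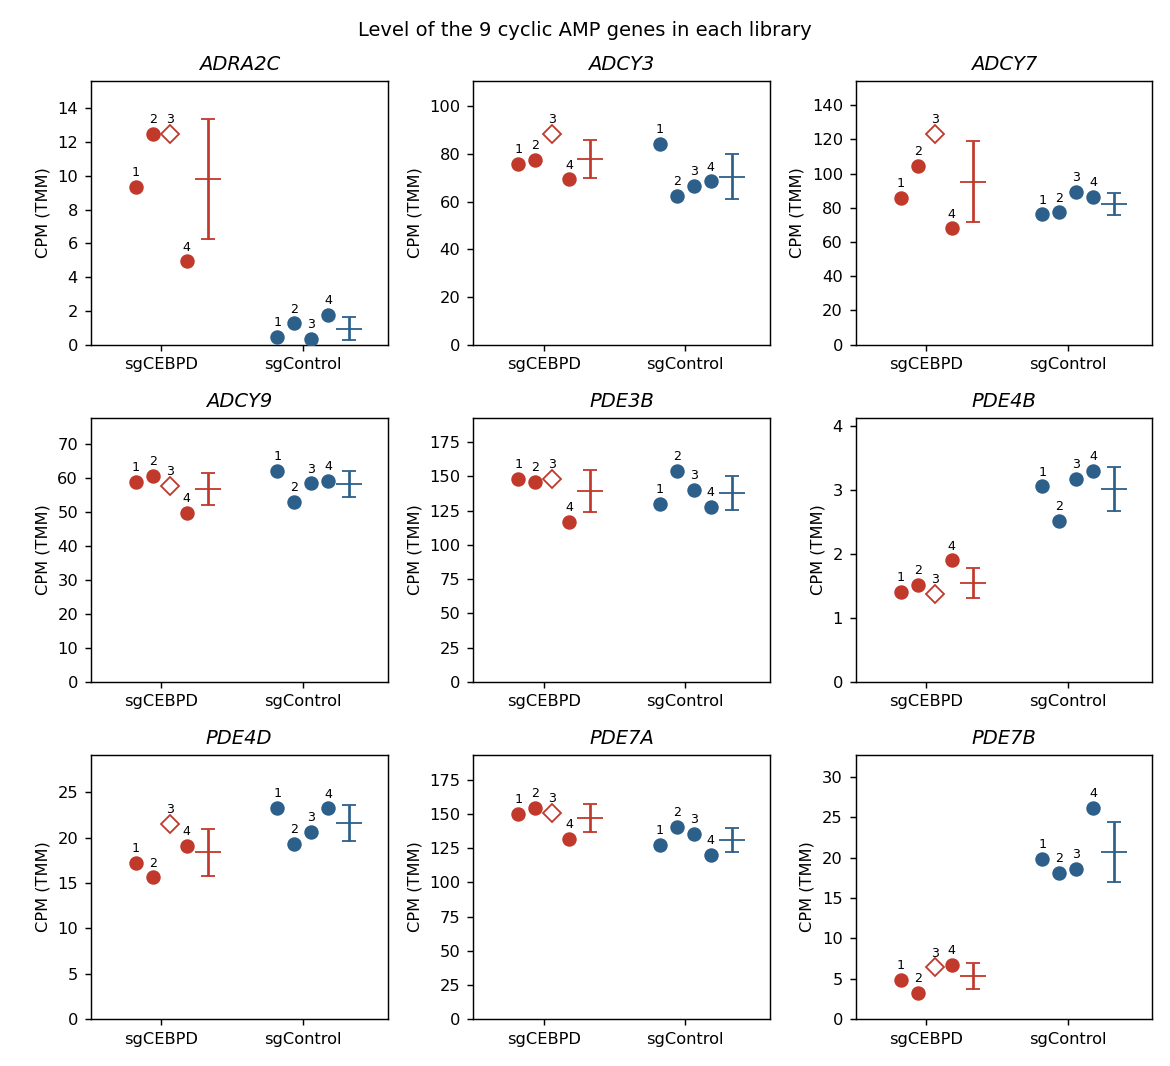
TMM-normalised CPM (y axes, linear from 0) of the 9 genes in the 4 sgCEBPD libraries (left, red) and the 4 sgControl libraries (right, blue), with library numbers beside the points, sgCEBPD 3 as an open diamond, and the group mean with SD beside each group. ADRA2C, PDE4B and PDE7B are the panels in which the groups do not overlap, while the ADCY9 and PDE3B values overlap.

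The 3 cyclases had overlapping levels in the groups. ADCY3, best known for its part in smell but expressed in many tissues, had 75.9, 77.5, 88.4 and 69.3 CPM in sgCEBPD 1 to 4, against 84.0, 62.3, 66.6 and 68.5 CPM in sgControl 1 to 4. Its log2 fold change was 0.14 (SE 0.11), and 0.08 (SE 0.10) without sgCEBPD 3. ADCY7, a cyclase prominent in blood cells, had 85.8, 104, 123 and 68.0 CPM in sgCEBPD, against 76.2, 77.3, 89.3 and 86.6 CPM in sgControl. Its highest and its lowest value over all 8 libraries were both in sgCEBPD libraries, sgCEBPD 3 and sgCEBPD 4. The log2 fold change of ADCY7 was 0.21 (SE 0.17), and 0.06 (SE 0.14) without sgCEBPD 3. ADCY9, a cyclase insensitive to the plant compound forskolin compared with its relatives, averaged 56.7 ± 4.77 CPM in sgCEBPD and 58.1 ± 3.79 CPM in sgControl (SD, n = 4 each), with a log2 fold change of -0.04 (SE 0.08) both with and without sgCEBPD 3. ADCY3 lies on the minus strand of chromosome 2 (24819169 to 24919839), and ADCY7 and ADCY9 lie on chromosome 16, on the plus strand (50246137 to 50318135) and the minus strand (3953387 to 4116185). Summed, the 3 cyclases came to 221, 242, 269 and 187 CPM in sgCEBPD 1 to 4, against 222, 193, 214 and 214 CPM in sgControl 1 to 4. The file does not state strand, and exons of ADCY7 and ADCY3 overlap those of the opposite-strand genes BRD7 and CENPO by 3593 and 1488 bases, so some reads could belong to either. BRD7 had 85.0 ± 8.58 CPM in sgCEBPD and 88.6 ± 1.34 CPM in sgControl, and CENPO had 25.8 ± 2.09 CPM in sgCEBPD and 27.0 ± 0.74 CPM in sgControl (SD, n = 4 each).

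PDE7B and PDE7A form a family of phosphodiesterases that are selective for cyclic AMP and are not blocked by the classic inhibitors of the PDE4 family. PDE7B lies on chromosome 6 from 135851696 to 136195574 on the plus strand. It had 4.86, 3.22, 6.39 and 6.74 CPM in sgCEBPD 1 to 4, against 19.9, 18.1, 18.6 and 26.2 CPM in sgControl 1 to 4. Every sgCEBPD library, sgCEBPD 3 included, was below every control by more than the spread within either group. The log2 fold change was -1.96 (SE 0.24), and -2.06 (SE 0.24) without sgCEBPD 3. The antisense gene AL138828.1 shares 452 exon bases with PDE7B and was not among the rows used here.

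PDE7A (minus strand of chromosome 8, 65717510 to 65842322) did not share the low sgCEBPD values of PDE7B. It had 150.3, 154, 151 and 132 CPM in sgCEBPD 1 to 4, against 127, 141, 135 and 120.2 CPM in sgControl 1 to 4. Of the sgCEBPD libraries 3 were above every control, and sgCEBPD 4 lay inside the control range. The log2 fold change was 0.17 (SE 0.08), and 0.15 (SE 0.07) without sgCEBPD 3. As a share of all PDE7 reads, PDE7B made up 3.14%, 2.04%, 4.05% and 4.87% in sgCEBPD 1 to 4, against 13.5%, 11.4%, 12.1% and 17.9% in sgControl 1 to 4. The highest upper bound in sgCEBPD was 6.03% and the lowest lower bound in sgControl 9.97% (95% Wilson intervals, counting error only), so no interval of one group met one of the other.

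**Figure D2:**
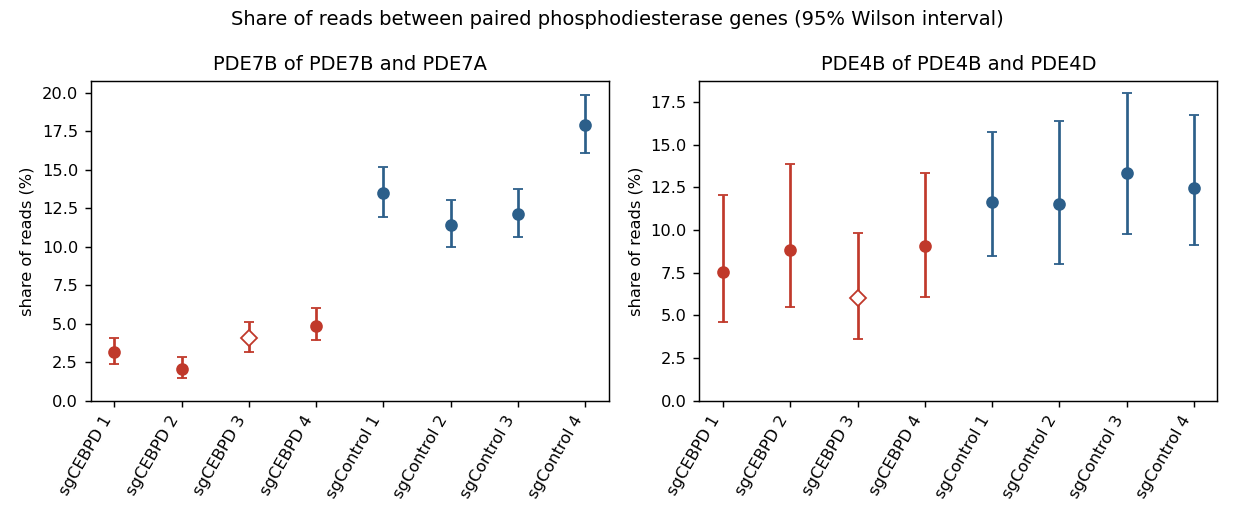
Share of reads in percent (y axes, from 0) that came from PDE7B among PDE7B and PDE7A reads (left) and from PDE4B among PDE4B and PDE4D reads (right), in the sgCEBPD libraries (red, sgCEBPD 3 as an open diamond) and the sgControl libraries (blue), with 95% Wilson intervals. PDE7B stays at or below 4.87% in sgCEBPD and at or above 11.4% in sgControl, whereas the PDE4B intervals of the groups overlap.

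PDE4B and PDE4D encode cyclic AMP phosphodiesterases of the PDE4 family, the targets of rolipram and roflumilast, and PDE4B is the member best known for its part in inflammatory cells. PDE4B lies on the plus strand of chromosome 1 (65792514 to 66374579). It was scarce, with 15, 16, 14 and 22 counts in sgCEBPD 1 to 4, against 35, 26, 35 and 36 counts in sgControl 1 to 4. These are 1.40, 1.51, 1.38 and 1.90 CPM in sgCEBPD, against 3.06, 2.52, 3.18 and 3.30 CPM in sgControl. The groups did not overlap, but the Poisson intervals of the nearest libraries did, at 1.19 to 2.88 CPM in sgCEBPD 4 and 1.65 to 3.69 CPM in sgControl 2. The log2 fold change was -0.95 (SE 0.19), and -0.90 (SE 0.22) without sgCEBPD 3.

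PDE4D had 17.2, 15.6, 21.5 and 19.1 CPM in sgCEBPD 1 to 4, against 23.3, 19.3, 20.6 and 23.2 CPM in sgControl 1 to 4. The gene lies on the minus strand of chromosome 5 (58969038 to 60522120). The sgCEBPD libraries 1, 2 and 4 were below all controls, while sgCEBPD 3 lay inside the control range. The log2 fold change was -0.23 (SE 0.12), and -0.32 (SE 0.10) without sgCEBPD 3. PDE4B made up 7.54%, 8.84%, 6.01% and 9.05% of PDE4B and PDE4D reads in sgCEBPD 1 to 4, against 11.6%, 11.6%, 13.4% and 12.5% in sgControl 1 to 4.

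PDE3B, a phosphodiesterase inhibited by cyclic GMP and known from insulin action in fat cells, had 148, 146, 148 and 117 CPM in sgCEBPD 1 to 4, against 130, 154, 140 and 128 CPM in sgControl 1 to 4. It lies on the plus strand of chromosome 11 (14643723 to 14872044). Its log2 fold change was 0.02 (SE 0.10), and -0.01 (SE 0.10) without sgCEBPD 3, so no difference was detectable beside the spread between libraries. Summed, the 5 phosphodiesterases came to 322, 321, 328 and 276 CPM in sgCEBPD 1 to 4, against 303, 335, 318 and 300.4 CPM in sgControl 1 to 4. Most of these reads came from PDE7A and PDE3B, and PDE7B was a small part of them in both groups. PDE7A shares 116 of its 7425 exon bases with the opposite-strand gene MTFR1, and PDE4D shares 227 of 16308 with PART1, so without strand the reads in those bases cannot be told apart.

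**Figure D3:**
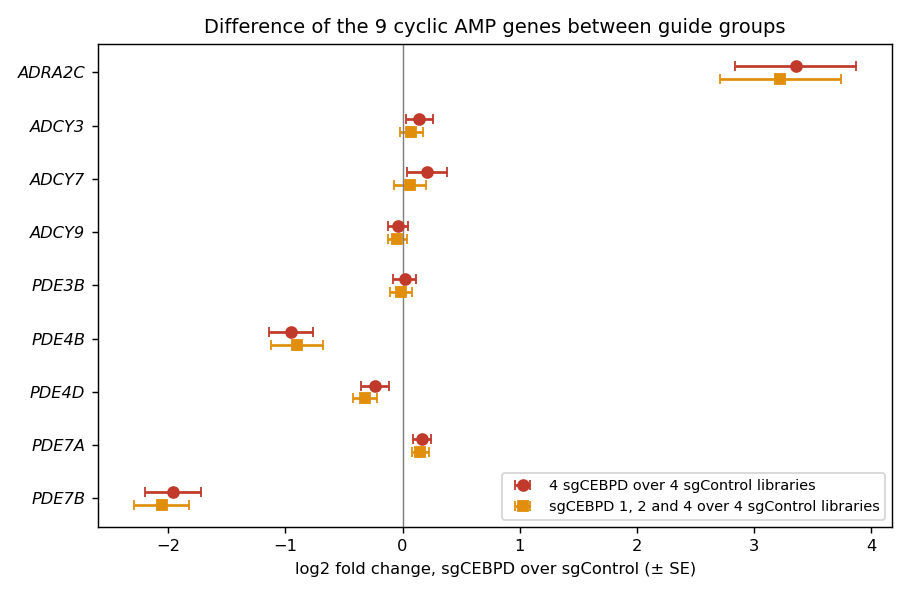
Log2 fold change of sgCEBPD over sgControl with its SE (x axis) for the 9 genes (rows), from 4 against 4 libraries (red circles) and from sgCEBPD 1, 2 and 4 against 4 controls (orange squares). ADRA2C stands at 3.36 and 3.22 and PDE7B at -1.96 and -2.06, while the cyclases, PDE3B and PDE7A lie between -0.04 and 0.21 in both fits.

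Per kilobase of annotated exon, PDE7A had the highest level of the set and PDE4B the lowest in both groups. The levels were 19.8 ± 1.39 CPM per kilobase for PDE7A in sgCEBPD and 17.6 ± 1.21 in sgControl (SD, n = 4 each). ADCY3 (12.8 ± 1.31 in sgCEBPD and 11.6 ± 1.56 in sgControl) and PDE3B (11.9 ± 1.31 in sgCEBPD and 11.8 ± 1.04 in sgControl) came next and did not differ from each other beyond these SDs, and ADCY7 (11.0 ± 2.76 in sgCEBPD and 9.54 ± 0.76 in sgControl) lay within the SDs of that pair in sgCEBPD. ADCY9 followed at 5.47 ± 0.46 CPM per kilobase in sgCEBPD and 5.61 ± 0.37 in sgControl. Below these the order of levels differed between the groups. In sgCEBPD, ADRA2C (4.50 ± 1.64) stood above PDE4D (1.13 ± 0.16), PDE7B (0.892 ± 0.271) and PDE4B (0.179 ± 0.028), with ADRA2C within its SD of ADCY9 and PDE7B within its SD of PDE4D. In sgControl, PDE7B (3.48 ± 0.63) stood above PDE4D (1.32 ± 0.12), ADRA2C (0.436 ± 0.306) and PDE4B (0.349 ± 0.04), with the last pair within their SDs. The lengths join the exons of all annotated isoforms, so genes with many isoforms such as PDE4D can read low on this scale.

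The sgCEBPD libraries differed among themselves. The library sgCEBPD 4 had the lowest sgCEBPD value in 6 of the 9 genes, among them ADRA2C and all 3 cyclases, and the highest in PDE7B and PDE4B. Over all genes tested, sgCEBPD 4 was lowest of the sgCEBPD libraries in 21.0%. For the 3 genes with separate groups, sgCEBPD 4 was thus the library nearest to the controls. The order did not follow CEBPD transcript, which was lowest in sgCEBPD 1. In sgCEBPD 2, where CEBPD stood at 101% of the control mean, PDE7B was at its lowest, 15.5% of the control mean, and ADRA2C at its highest, level with sgCEBPD 3. The library sgCEBPD 3 lay outside the other 7 in 3 members, above them in ADCY3 and ADCY7 and below them in PDE4B.

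Counted against all genes, 3 of the 9 members had groups with no overlap over 8 libraries, 1 higher and 2 lower. The background was 9.59% of the genes tested, 4.96% higher and 4.62% lower. Without sgCEBPD 3, PDE4D joined those that were lower, against a background of 14.4%, made up of 6.89% higher and 7.5% lower. In edgeR's quasi-likelihood test with Benjamini-Hochberg adjustment over all genes, PDE7B was the 1 member past an adjusted p of 0.05 with 8 libraries, where 0.0795% of genes passed (0.00723% higher, 0.0723% lower). Without sgCEBPD 3, ADRA2C and PDE7B were the 2 past it in that test, where 2.01% passed (0.705% higher, 1.31% lower). The members were chosen from this contrast, so these counts carry no weight of their own. The median log2 fold change was 0.02 over the 9 members and 0.00 over all genes tested, and -0.01 against 0.00 without sgCEBPD 3.

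Among 12196 other genes with a mean of at least 2 CPM, those whose log2 CPM ran closest to PDE7B over the 8 libraries were STON1, TM4SF1 and ELFN2, with Pearson r of 0.97, 0.97 and 0.97. Their means were 9.05, 12.3 and 0.428 CPM in sgCEBPD, against 33.4, 30.2 and 6.02 CPM in sgControl. Closest to ADRA2C were FAM204A, ZNF28 and GTF3C5, with r of 0.98, 0.97 and 0.97, although their levels differed little, as in GTF3C5 with 111 CPM in sgCEBPD and 100.3 CPM in sgControl. These coefficients are a description over 8 libraries that share a split into groups. ELFN2 occurs under a symbol with more than 1 row.

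The rest of the cyclic AMP pathway was taken as 145 further genes in 13 lists, from receptors to CREB targets. Of these, 111 had a row, 79 were tested with 8 libraries and 80 without sgCEBPD 3. None passed an adjusted p of 0.05 in edgeR in either comparison, where 0.0795% and 2.01% of all genes did. At an unadjusted p under 0.05 there were 15 of 79 with 8 libraries, against 11.4% of all genes, and 18 of 80 without sgCEBPD 3, against 15.5%. DESeq2 called 4 and 5, where it called 2.12% and 4.24% of all genes, and limma-voom called 0 and 1, where it called 0.0939% and 1.55%. Those of DESeq2 were PTGER4, ADORA3 and PDE4A (higher) and PRKAR2B (lower) with 8 libraries, and PTGER4, GNAI1 and PDE4A (higher) and HRH2 and PRKAR2B (lower) without sgCEBPD 3, and that of limma-voom was PRKAR2B. The groups did not overlap in 7 genes that were higher and 5 that were lower, and in 8 and 6 without sgCEBPD 3, against the 9.59% and 14.4% of all genes given above. Log2 fold changes were positive in 50 of 79 and negative in 29, with a median of 0.07 against 0.00 over all genes tested. Without sgCEBPD 3 they were positive in 47 of 80, with a median of 0.03.

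Among 9 tested receptors that raise cyclic AMP, 3 log2 fold changes were positive and 6 negative, none past the threshold. PTGER4, a receptor for prostaglandin E, had 40.3, 64.6, 113 and 35.4 CPM in sgCEBPD 1 to 4, against 21.5, 30.2, 25.8 and 23.7 CPM in sgControl 1 to 4. All 4 sgCEBPD libraries were above the controls. The group difference was 1.32 on the log2 scale (SE 0.35; edgeR, adjusted p = 0.272), and 0.89 (SE 0.23, adjusted p = 0.13) without sgCEBPD 3. PTGER2, its partner for the same ligand, had 57.4 ± 7.08 CPM in sgCEBPD and 56.0 ± 4.81 CPM in sgControl (SD, n = 4 each). HRH2, the histamine receptor that raises cyclic AMP, had 130.4, 146, 148 and 125 CPM in sgCEBPD 1 to 4, against 167, 155, 155 and 173 CPM in sgControl 1 to 4. Its groups did not overlap, with a log2 fold change of -0.24 (adjusted p = 0.328 in edgeR), and of -0.28 (adjusted p = 0.0573) without sgCEBPD 3. Of the 8 other adrenergic receptors, 6 had a row and 3 were tested. ADRB1, which couples to the stimulatory G protein, averaged 7.59 ± 2.56 CPM in sgCEBPD and 6.47 ± 1.30 CPM in sgControl (SD, n = 4 each). ADRA2A, a close relative of ADRA2C, ranged from 0.295 to 3.74 CPM in sgCEBPD and from 0.678 to 2.57 CPM in sgControl.

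**Figure D4:**
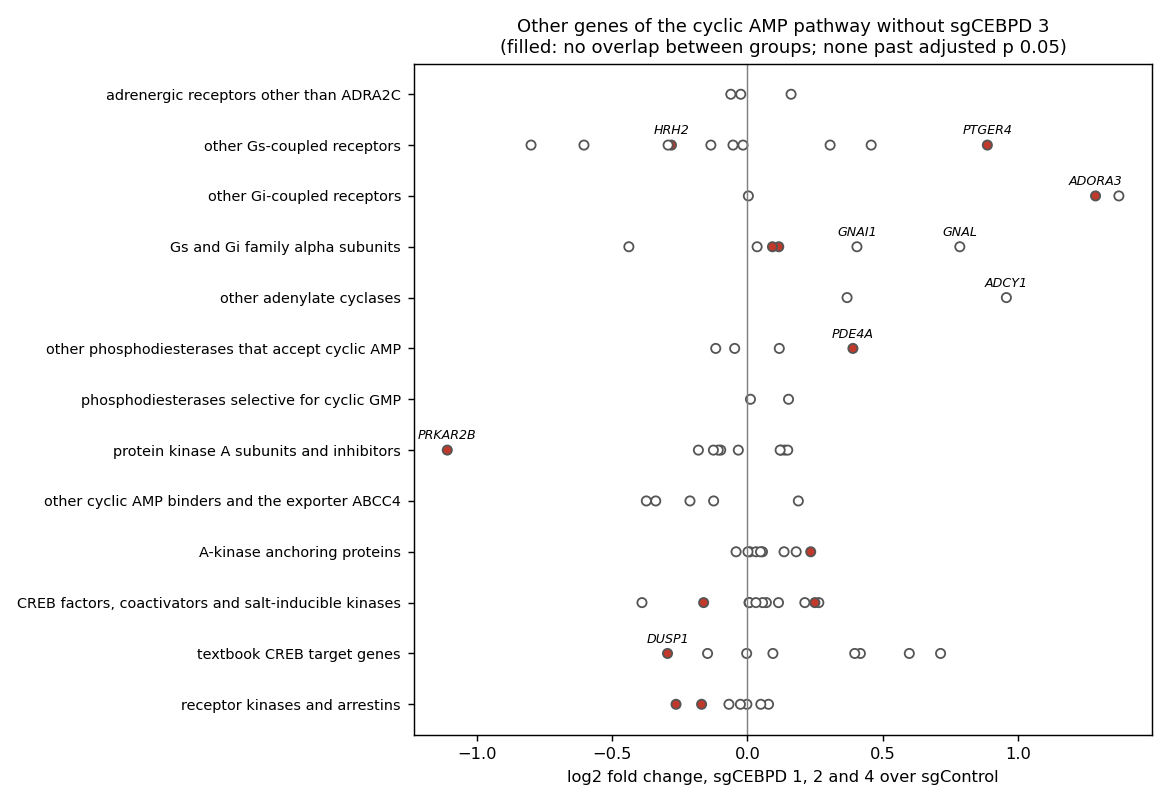
Log2 fold change of sgCEBPD 1, 2 and 4 over sgControl (x axis) for the 80 tested pathway genes other than the 9 members, in 13 lists (rows). Filled points mark genes whose groups do not overlap, and selected genes are named. PRKAR2B lies lowest at -1.11, PTGER4 stands at 0.89 and ADORA3 at 1.29, and no gene passed an adjusted p of 0.05.

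Receptors that lower cyclic AMP were mostly at low levels. ADORA3, an adenosine receptor that couples to inhibitory G proteins, had 1.59, 4.54, 29.4 and 1.81 CPM in sgCEBPD 1 to 4, against 1.22, 0.969, 1.09 and 1.01 CPM in sgControl 1 to 4. All 4 sgCEBPD libraries were above the controls, by far the most in sgCEBPD 3. The difference was 3.10 on the log2 scale (SE 0.98; edgeR, adjusted p = 0.329), and 1.29 (SE 0.38, adjusted p = 0.131) without that library. OPRL1, an opioid-related receptor, had 3.96 ± 0.24 CPM in sgCEBPD and 3.89 ± 0.53 CPM in sgControl (SD, n = 4 each). Among G protein subunits, GNAS, which encodes the stimulatory subunit, had 1070 ± 42.5 CPM in sgCEBPD and 1004 ± 27.3 CPM in sgControl, and GNAI2, an inhibitory subunit, had 604 ± 88.4 CPM in sgCEBPD and 526 ± 8.93 CPM in sgControl (SD, n = 4 each). Their adjusted p in edgeR was 0.514 and 0.464. Without sgCEBPD 3, GNAS and GNAI2 had 1088 ± 28.1 and 560 ± 19.0 CPM in sgCEBPD. The adjusted p in edgeR was then 0.161 and 0.278.

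Among the other phosphodiesterases, PDE4A ran opposite to PDE4B and PDE4D of its own family. It had 86.4, 108, 129.7 and 87.4 CPM in sgCEBPD 1 to 4, against 68.2, 82.7, 68.0 and 68.4 CPM in sgControl 1 to 4, with no overlap. Its log2 fold change was 0.52 (SE 0.14, adjusted p = 0.281 in edgeR), and 0.39 (SE 0.10, adjusted p = 0.0914) without sgCEBPD 3. PDE8A, a phosphodiesterase with high affinity for cyclic AMP, had 24.2 ± 3.32 CPM in sgCEBPD and 24.2 ± 1.23 CPM in sgControl. The cyclic GMP phosphodiesterases PDE6B and PDE5A had 5.14 ± 0.88 and 2.76 ± 0.47 CPM in sgCEBPD, against 4.27 ± 1.96 and 2.96 ± 0.77 CPM in sgControl. Of the other cyclases, ADCY4 had 5.24, 4.07, 12.6 and 3.11 CPM in sgCEBPD 1 to 4, against 2.62, 4.36, 2.82 and 3.03 CPM in sgControl 1 to 4.

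Downstream, PRKAR2B encodes a regulatory subunit of protein kinase A. It had 5.52, 4.82, 4.13 and 10.3 CPM in sgCEBPD 1 to 4, against 15.6, 15.3, 13.3 and 15.5 CPM in sgControl 1 to 4. All sgCEBPD libraries were below the controls. On the log2 scale they differed by -1.26 (SE 0.27; edgeR, adjusted p = 0.198), and by -1.11 (SE 0.24, adjusted p = 0.0516) without sgCEBPD 3. Leaving out each of the 8 libraries in turn gave an adjusted p for PRKAR2B between 0.0339 and 0.581, under 0.05 in 1 of 8 fits, the one without sgCEBPD 4. PRKAR1A, the most abundant regulatory subunit of the list, had 217 ± 38.9 CPM in sgCEBPD and 182 ± 5.78 CPM in sgControl. PRKX, a related catalytic kinase, had 108 ± 12.3 CPM in sgCEBPD and 109.6 ± 4.6 CPM in sgControl (SD, n = 4 each for both genes). PRKAR1A and PRKX averaged 198 ± 5.77 and 101.7 ± 2.33 CPM in sgCEBPD without sgCEBPD 3. Over the 10 tested genes of this list, 4 log2 fold changes were positive and 6 negative.

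The anchoring proteins (9 tested) and the CREB factors with their coactivators (11 tested) held no gene past the threshold in edgeR. PALM2AKAP2 and AKAP8 had 312 ± 18.7 and 147 ± 12.98 CPM in sgCEBPD, against 301 ± 4.63 and 147 ± 4.76 CPM in sgControl. The coactivators CREBBP and EP300 had 244 ± 17.4 and 219.6 ± 27.6 CPM in sgCEBPD, against 228 ± 11.1 and 190 ± 7.27 CPM in sgControl (SD, n = 4 each). Of the CREB target genes, 8 of 13 were tested. FOS, an immediate early gene, had 32.3, 96.7, 180 and 32.3 CPM in sgCEBPD 1 to 4, against 31.5, 28.0, 32.7 and 38.6 CPM in sgControl 1 to 4. It was high in sgCEBPD 2 and sgCEBPD 3 only, with an adjusted p of 0.409 in edgeR, and of 0.548 without sgCEBPD 3. DUSP1, a phosphatase of MAP kinases, had 7.58, 6.24, 9.43 and 8.21 CPM in sgCEBPD 1 to 4, against 8.81 to 9.18 CPM in sgControl. Thus sgCEBPD 3 lay above all controls and the other sgCEBPD libraries below them. Its log2 fold change was -0.20 (adjusted p = 0.598 in edgeR), and -0.30 (adjusted p = 0.339) without sgCEBPD 3. PER1, a clock gene, had 33.6 ± 4.57 CPM in sgCEBPD (35.6 ± 2.72 CPM without sgCEBPD 3) and 39.5 ± 1.26 CPM in sgControl. The receptor kinase GRK2 had 1081 ± 181 CPM in sgCEBPD and 994 ± 8.74 CPM in sgControl. The arrestin ARRB2 had 221 ± 25.5 CPM in sgCEBPD and 203 ± 8.25 CPM in sgControl. Without sgCEBPD 3, GRK2 and ARRB2 had 992 ± 41.2 and 209.6 ± 13.1 CPM in sgCEBPD. The cyclic AMP exporter ABCC4 had 69.5 ± 18.1 CPM in sgCEBPD and 67.7 ± 1.93 CPM in sgControl. The cyclic AMP binder BVES had 26.6 ± 7.04 CPM in sgCEBPD and 34.6 ± 3.24 CPM in sgControl. In sgCEBPD 1, 2 and 4 alone, ABCC4 and BVES averaged 77.1 ± 11.8 and 29.9 ± 3.22 CPM.

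The library sgCEBPD 3 lay outside the other 7 libraries in 61 of the 79 tested pathway genes, against 69.7% of all genes tested, and in 3 of the 9 members. PKIA and PKIB, which encode inhibitors of protein kinase A, stood on opposite sides of the other libraries there. PKIA stood at 0.884 CPM in sgCEBPD 3, against 13.2 to 14.2 CPM in the other sgCEBPD libraries and 12.02 to 16.2 CPM in sgControl, while PKIB stood at 265 CPM, against 42.2 to 78.3 CPM in the other sgCEBPD libraries and 54.2 to 77.0 CPM in sgControl. GPR12, a receptor known to raise cyclic AMP without a ligand, stood at 1.57 CPM, against 10.1 to 12.4 CPM in the other sgCEBPD libraries and 9.73 to 16.0 CPM in sgControl. GNAL, a stimulatory subunit known from smell, stood at 0.688 CPM, against 4.07 to 13.2 CPM in the other sgCEBPD libraries and 2.42 to 8.05 CPM in sgControl. PTGS2, the inducible enzyme of prostaglandin synthesis, stood at 9.53 CPM, against 1.12 to 1.80 CPM in the other sgCEBPD libraries and 0.581 to 1.14 CPM in sgControl. These are values of 1 library and have no replicate.

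**Figure D5:**
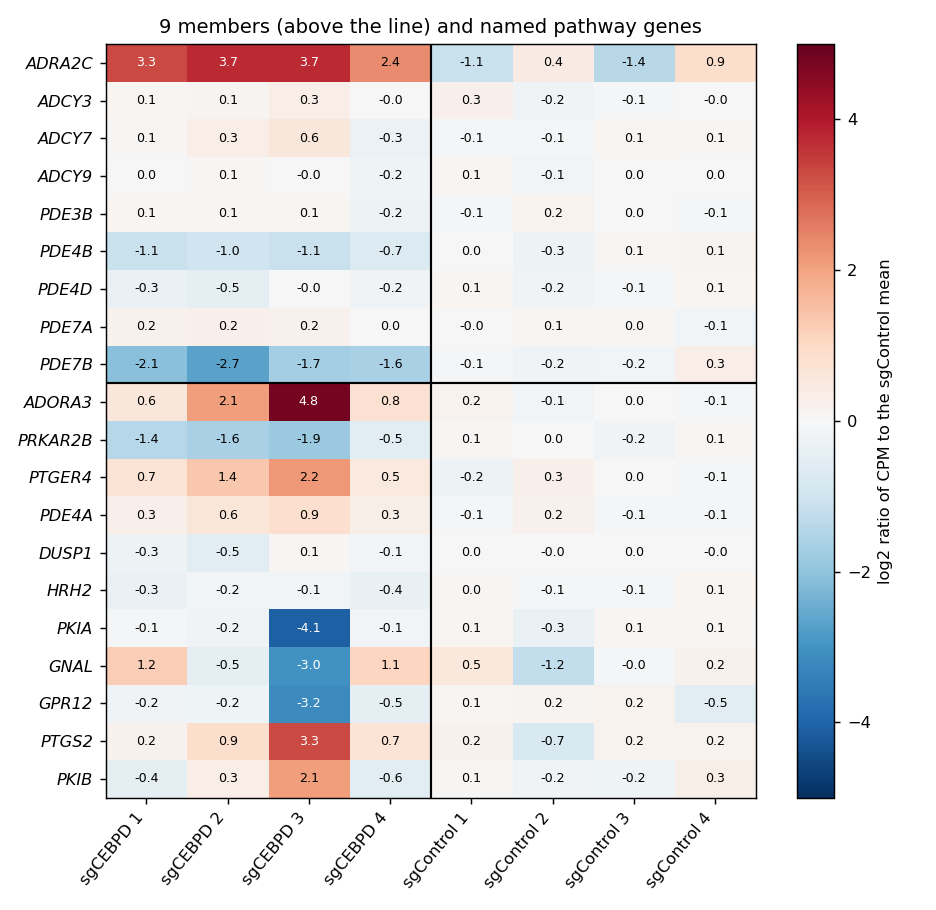
Log2 ratio of the CPM in each library (columns) to the sgControl mean of the same gene, for the 9 members (rows above the line) and the pathway genes named for separate groups or for sgCEBPD 3 (rows below the line). ADRA2C and PDE7B keep their sign in all 4 sgCEBPD columns, while PKIA, GNAL and GPR12 are low and ADORA3 and PTGS2 are high mainly in the sgCEBPD 3 column.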

How the data were processed

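PolyA RNA of 8 OCI-AML5 libraries was sequenced. The deposited table holds raw counts of reads for each gene, with no normalization. The submitters' processing notes name FastQC, HISAT2, DESeq2 and hg38, with neither role nor version. How reads were assigned to genes, with which strand setting and annotation, is not given in the sources used here. The members and lists were chosen with earlier results of these data known.

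The main test was edgeR 4.0.16 (R 4.3.3): filterByExpr, TMM, a robust quasi-likelihood fit on group alone, and Benjamini-Hochberg adjustment across all genes that passed the filter, called at 0.05. Each SE was taken as the size of the log2 fold change over the root of its F statistic. It was repeated without sgCEBPD 3. Alternatives were DESeq2 1.42.0 and limma-voom (limma 3.58.1), other scalings and filters, and leaving out each library. The p-values set each group difference against the spread between these libraries, estimated partly from all genes tested, and cover no other source of variation.

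Named pathway genes were the 2 most abundant of each list, up to 6 with separate groups without sgCEBPD 3, up to 6 with sgCEBPD 3 outside the rest, and the 3 most like PDE7B and the 3 most like ADRA2C. A gene that this rule names is not reported here. Positions and exon lengths came from GENCODE 29 (GRCh38).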

Additional observations from a re-analysis of the deposited data

Results flagged for a closer look

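For the genes named, 88 sets of 4 libraries were searched for a single distant value. It was found in 12, of which 5 were sgCEBPD 3. Chance gives about 1 in 20, or 4.4, but the count cannot be set against it, since ADORA3, PKIA, PKIB and PTGS2 were named, at least in part, because sgCEBPD 3 lay outside the rest.

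The 1 member among them was PDE3B, which stood at 117 CPM in sgCEBPD 4, below the 146 to 148 CPM of the other sgCEBPD libraries.

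In sgCEBPD 3, ADORA3 (29.4 CPM), PKIB (265 CPM), PTGS2 (9.53 CPM) and PRKAR1A (275 CPM) were far above the other sgCEBPD libraries. PKIA was far below them there, at 0.884 CPM.

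Among the controls, sgControl 2 stood apart in PDE4A (82.7 CPM, against 68.0 to 68.4 CPM in the other controls), PKIA (12.02 CPM, against 15.5 to 16.2 CPM) and PTGS2 (0.581 CPM, against 1.09 to 1.14 CPM). sgControl 4 stood apart in GPR12 (9.73 CPM, against 15.0 to 16.0 CPM in the other controls). sgControl 3 stood apart in PRKAR2B (13.3 CPM, against 15.3 to 15.6 CPM) and GRK2 (1007 CPM, against 989 to 991 CPM). No explanation was tested.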

How the results depend on the processing

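The log2 fold changes of ADRA2C, PDE7B, PDE4B, PDE4D, PDE7A and ADCY3 kept their sign in all alternatives that gave a value. They ran from 2.90 to 3.83 for ADRA2C and from -2.35 to -1.78 for PDE7B over both sets of libraries. Those of ADCY7, ADCY9 and PDE3B, none past the test, changed sign in 1 or more alternatives. PDE4B and, with 7 libraries, ADRA2C gave no value under a minimum mean of 5 CPM.

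With 8 libraries and 11 genes called, DESeq2 called 292 genes, no filter on low counts 20, a stricter adjusted p of 0.01 gave 1, and a replicate block on guide numbers gave 1. Leaving out 1 library gave 0 (without sgCEBPD 2, with 1345 at an unadjusted p under 0.05) to 283 (without sgCEBPD 3), with 1 each without sgControl 1, 3 or 4, 6 each without sgCEBPD 1 or sgControl 2, and 10 without sgCEBPD 4. Of the pathway genes, DESeq2 called 4, and leaving out 1 library gave 0 to 1. Without sgCEBPD 3 and with 283 genes called, DESeq2 called 596 and an adjusted p under 0.01 called 40, and leaving out 1 more library gave 66 (without sgControl 1) to 312 (without sgCEBPD 4), with 139 to 152 without sgCEBPD 1, sgCEBPD 2, sgControl 3 or sgControl 4. There the pathway count of 0 became 5 with DESeq2, 4 with the replicate block, 3 with no filter, and 1 each with limma-voom, library totals and a mean of at least 5 CPM, and 0 to 3 without 1 library. Over all genes, the block called 352, no filter 403, limma-voom 218, library totals 280 and the mean of at least 5 CPM 239. Among the pathway genes, PRKAR2B was called in 6 of these alternatives, at adjusted p between 0.00061 and 0.0493. HRH2 was called in 4, PDE4A in 3 and PTGER4 in 2, and GNAI1, PTGER3 and P2RY14 in 1 or more. The block used the guide number. Same-numbered libraries also share a number in their library names, but the labels do not say that they were paired. Their deviations correlated between -0.08 and 0.06, which over 4 libraries in each group cannot settle whether they were. The cause of the changes in calls between settings was not tested. Depth limits ADRA2C and PDE4B, with as few as 4 and 14 counts in a library.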

Other observations

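ADCY1, a cyclase stimulated by calcium and calmodulin, varied widely within both groups. It had 35.3 and 20.2 CPM in sgCEBPD 1 and 2, and no count in sgCEBPD 3 and 4, which allows up to 0.295 and 0.259 CPM. In sgControl 1 to 4 it had 1.92, 8.43, 0.273 and 27.4 CPM. Its log2 fold change of 0.54 had an SE of 1.57.

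PTGER3, a prostaglandin E receptor that couples to inhibitory G proteins, fell below the filter on low counts and was chosen after its values were seen. It had 10, 20, 48 and 3 counts in sgCEBPD 1 to 4, against 0, 0, 1 and 0 counts in sgControl 1 to 4. With no filter on low counts, its adjusted p in edgeR was 0.215 with 8 libraries and 0.00954 without sgCEBPD 3. GNAI1, an inhibitory G protein subunit also chosen after its values were seen, had 113, 133, 74.3 and 95.4 CPM in sgCEBPD 1 to 4, against 74.0, 94.7, 97.8 and 76.6 CPM in sgControl 1 to 4, and an adjusted p of 0.242 in edgeR without sgCEBPD 3.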
